A study of Mus musculus and Rattus norvegicus with 80 samples.

Results

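The loci described here are the 707 mouse LINE-1 (L1) loci that the deposited files list as full length but non-intact and whose core is longer than 5100 bp. The core is the interval between the start and end that the files give for a locus beside its wider counting window. A locus was kept when its core was over 5100 bp and was not also on the authors' list of loci with only the second reading frame preserved, and each core was counted once, which left 707 of 17019 different loci. The rule used annotation only and no read counts. The libraries were made from cytoplasmic, polyadenylated RNA of organs of untreated C57BL/6 mice, with 1 library per organ and animal and 56 libraries in all. Testes and livers came from 9 males, 3 of 1.9 to 3.6 months (mo), 3 of 7.6 mo and 3 of 22.3 mo, and the males of 7.6 mo also gave 3 brains and 2 lungs. Ovaries, brains and lungs came from 9 females, 3 of 2.2 to 3.2 mo, 4 of 8 to 8.7 mo and 2 of 16.5 mo, and 6 of these females also gave a uterus. All animals of a comparison therefore shared strain and sex, and per the labels, an animal number marks the organs of 1 mouse. The files hold counts of L1 loci only, so the labelled organs could not be checked against marker genes. Levels are given as RPM, that is, the reads of a locus for every M of mapped reads in its library. Mapped reads ranged from 8.45 to 51.39 M, with a median of 32.64 M, and a count of 3 reads, used as the floor, was worth 0.0584 to 0.355 RPM. The mates of a pair are counted separately, so 3 reads stand for fewer than 3 fragments. Such floors therefore understate the counting error, and they cover no other error. Folds given below as at least a value rest on them.

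L1 elements are retrotransposons: an RNA is transcribed from an internal promoter at the 5′ end, encodes an RNA-binding protein and an endonuclease with reverse transcriptase, and is copied back into the genome. Most full-length copies carry mutations in a reading frame and are called non-intact. The same machinery can copy a spliced cellular mRNA, and such an intronless copy is called a processed pseudogene. A read counted on an L1 locus can start in the L1, in a copy of another sequence inserted into it, or in a gene around it, and in pieces of an organ fewer cells of a type and less RNA per cell cannot be told apart.

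Most reads were counted on a few loci whose cores hold a copy of another gene, so the sequences of these copies are shown first. The files give no position of reads within a window. GENCODE placed a processed pseudogene wholly inside the core of 16 of the 707 loci (2.26%). The share was 0.34% for the 11164 non-intact loci with cores of 4800 to 5100 bp, 0.222% for the 1800 shorter ones and 0.43% for the 2788 loci of the intact list. An inserted copy lengthens a core, so the length rule itself favours loci that hold one, and the shares cannot be compared without this. Without the copy, the cores of UID-6793 and UID-8004 would be 4924 and 5000 bp, under the limit. Those of UID-5815 and UID-2739 would be 5697 and 5174 bp, still over it. In 14 of the 16 the pseudogene lay on the strand of the L1. The best match of 1 of the 16, Gm43498 in UID-2886, was another predicted gene, Gm21833, and it was not taken as a copy of a gene outside L1. The other 15 were 250 to 1267 bp long. Over all 16, identity to the closest transcript of another gene ranged from 84.5% to 99.7%, and 13 ran across at least 1 exon junction of that transcript without an intron. The stretches below come from the 5 gene copies with the most reads and align to the coding part of the parent transcript. They are read 5′ to 3′ on the strand of the gene in mm10 (GENCODE transcripts, all on the plus strand). At most 300 bases are shown for a copy. Where the aligned coding part was longer, the 300 bases with the most differences were taken, so the counts of differences below are not averages over the copy. Capitals mark the bases that differ from the parent, including 1 inserted base in Gm4045.
Gm4332, a copy of Rps20 in UID-6793, chr3:119709529-119709828: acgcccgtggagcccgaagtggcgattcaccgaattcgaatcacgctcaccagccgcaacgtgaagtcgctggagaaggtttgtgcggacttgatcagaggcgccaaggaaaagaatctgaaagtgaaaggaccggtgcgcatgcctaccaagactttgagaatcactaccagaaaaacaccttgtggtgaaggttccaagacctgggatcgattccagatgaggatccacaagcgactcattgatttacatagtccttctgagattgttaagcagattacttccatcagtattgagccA
Eif1-ps2, a copy of Eif1 in UID-8004, chr13:64914001-64914300: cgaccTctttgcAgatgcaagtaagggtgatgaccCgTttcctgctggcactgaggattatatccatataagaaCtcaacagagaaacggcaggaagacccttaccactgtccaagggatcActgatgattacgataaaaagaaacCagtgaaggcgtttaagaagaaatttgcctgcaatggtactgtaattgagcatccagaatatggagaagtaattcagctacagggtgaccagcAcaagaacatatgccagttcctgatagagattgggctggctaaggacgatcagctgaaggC
Gm5539, a copy of Morf4l1 in UID-5815, chr3:59767509-59767808: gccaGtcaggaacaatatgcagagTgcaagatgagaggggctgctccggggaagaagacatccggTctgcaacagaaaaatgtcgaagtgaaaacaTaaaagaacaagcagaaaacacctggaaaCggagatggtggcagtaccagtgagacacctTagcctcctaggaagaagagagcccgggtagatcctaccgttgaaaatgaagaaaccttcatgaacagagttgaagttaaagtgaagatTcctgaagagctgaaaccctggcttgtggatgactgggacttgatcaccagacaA
Gm4045, a copy of Atp5l in UID-2739, chr6:66746017-66746316: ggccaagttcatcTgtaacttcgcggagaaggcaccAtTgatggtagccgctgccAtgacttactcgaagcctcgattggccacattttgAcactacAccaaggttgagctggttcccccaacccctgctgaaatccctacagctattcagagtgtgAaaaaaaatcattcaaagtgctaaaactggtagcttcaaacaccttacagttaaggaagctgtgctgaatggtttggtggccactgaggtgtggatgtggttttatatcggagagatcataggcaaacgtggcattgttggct
Gm8797, a ubiquitin gene copy close to Ubb in UID-5942, chr3:5750904-5751134: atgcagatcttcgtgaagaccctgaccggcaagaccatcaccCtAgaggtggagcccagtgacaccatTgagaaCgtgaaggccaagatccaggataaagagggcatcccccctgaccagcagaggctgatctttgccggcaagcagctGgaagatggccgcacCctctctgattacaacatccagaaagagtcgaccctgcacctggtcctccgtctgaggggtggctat
In the 300 bases shown, Gm4332 differs from Rps20 by G300A alone, where positions count from 1 at the first base shown, the parent's base comes first and the copy's base last. Eif1-ps2 differs at 9 of its 300 bases and Gm5539 at 8. Gm4045 differs at 6 bases and by the inserted base, and Gm8797 at 6 of 231 bases. The authors kept reads with up to 3 mismatches that had a unique place in the genome. Reads of a parent mRNA that cross an exon junction have no unbroken match at the parent gene, so reads of a copy and of its parent are uncertain, and which of them the counted reads came from was not tested.

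The cores ranged from 5101 to 11424 bp, with a median of 5311 bp, against 4993 bp for the non-intact loci of 4800 to 5100 bp. Of them, 236 (33.4%) were at most 5200 bp long, 226 (32.0%) lay between 5200 and 5500 bp, 81 (11.5%) between 5500 and 6000 bp, 87 (12.3%) between 6000 and 8000 bp, and 77 (10.9%) were longer than 8000 bp. On the plus strand lay 307 loci, and 130 (18.4%) were on the X chromosome, against 10.6% of the non-intact loci of 4800 to 5100 bp. Of the 707 cores, 538 (76.1%) overlapped no gene other than a pseudogene, 46 (6.51%) lay in a gene of the same strand and 123 (17.4%) only in a gene of the opposite strand. The same shares were 78.8%, 7.44% and 13.8% for the loci of 4800 to 5100 bp. An exon of a same-strand gene overlapped 7 of the long loci (0.99%), 0.161% of those of 4800 to 5100 bp, 0.722% of the shorter ones and 0.43% of the intact list. The 3 loci just over the length limit, UID-8795, UID-9795 and UID-4694, all of 5101 bp, had 0, 2 and 6 reads over the 56 libraries. The 3 just under it, UID-1, UID-6381 and UID-3307, of 5100 bp, had 62, 0 and 0 reads.

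**Figure D1:**
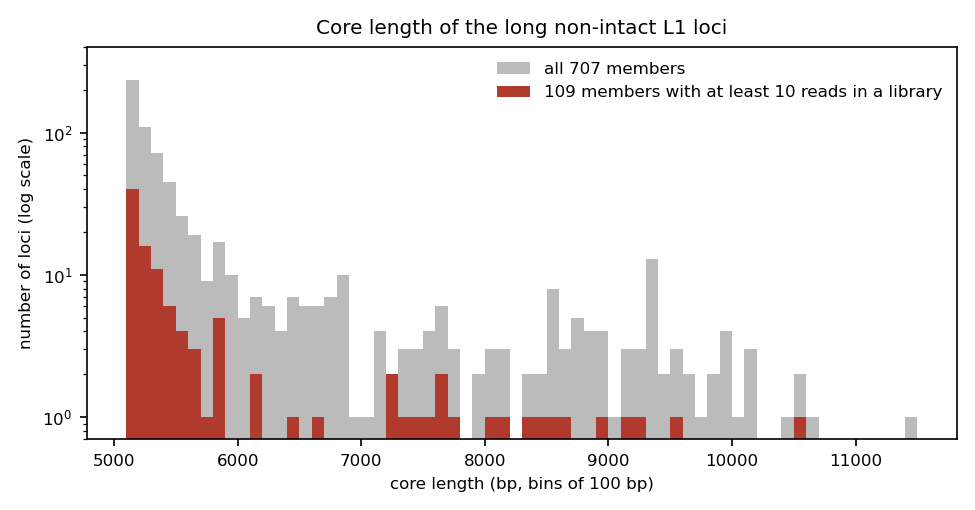
Number of loci (log scale) by core length in bins of 100 bp. Grey bars show all 707 long non-intact loci and red bars the 109 with at least 10 reads in a library, which are found at lengths up to 10563 bp but not among the 3 longest loci.

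At least 1 read was counted on 371 of the 707 loci (52.5%), and 336 had none in any library. This share was 63.4% for non-intact loci of 4800 to 5100 bp, 51.1% for shorter ones and 48.9% for the intact list, so at 1 read the long loci lay below those of 4800 to 5100 bp. At least 10 reads in a library were reached by 109 loci (15.4%). Here the share was 13.8% for non-intact loci of 4800 to 5100 bp, 12.6% for shorter ones and 2.55% for the intact list. It varied little with length within the group: 16.9% up to 5200 bp, 14.6% up to 5500 bp, 16.0% up to 6000 bp, 13.8% up to 8000 bp and 14.3% above. Of the 109 loci, 88 reached 10 reads in a testis and 66 in testes alone. Only 4 loci had at least 10 reads in all 56 libraries: UID-6793, UID-914, UID-8004 and UID-2739.

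Reads were concentrated on very few of them. The 707 loci held 466241 of the 2128696 reads counted on all loci (21.9%), and their share of the L1 reads of a library ranged from 12.5% to 35.2%, with a median of 20.5%. UID-6793 alone carried 379254 of these reads (81.3%), the first 5 loci 93.4% and all the others 6.63%. The loci with a processed pseudogene on the L1 strand, 10 of which had reads, held 403498 reads (86.5%). Many reads did not mean that the locus was covered. Of the 15 loci with at least 100 reads in a library, 4 had less than 15% of their counting window covered in every library and 7 reached 50%. Reads on UID-6793 covered a median of 383 bases in testes, close to the 346 bp of Gm4332 and a small part of its 6970 bp window, which holds the core, 700 bp upstream and 1000 bp downstream. By contrast, reads on UID-9760 covered 7103 of 7152 bases.

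**Figure D2:**
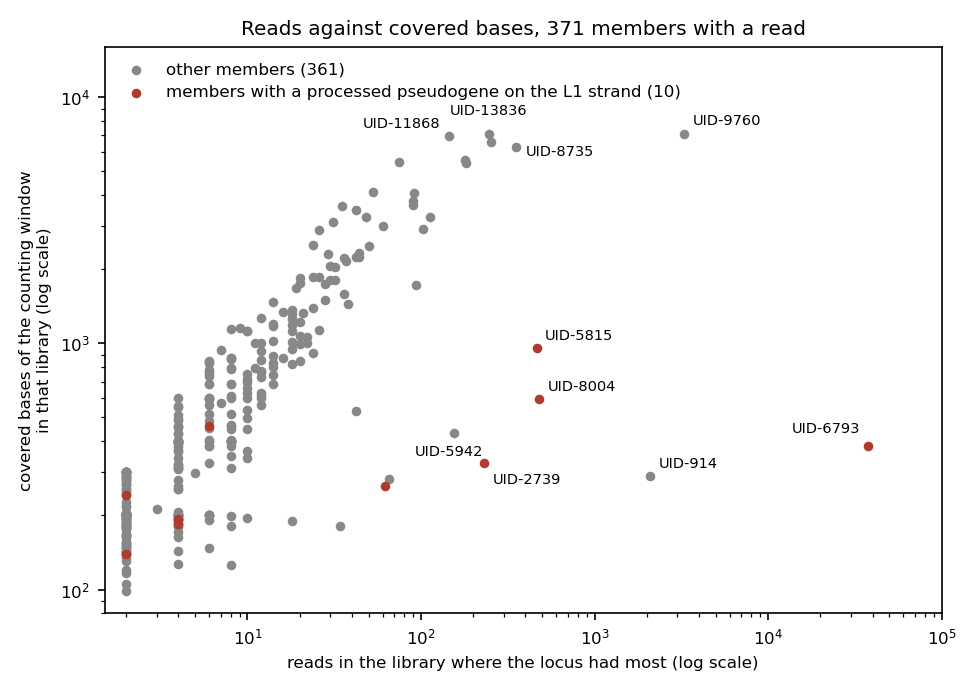
Reads in the library where a locus had most (log scale) against the bases of the counting window covered in that library (log scale), for the 371 loci with a read. Red points are the 10 loci with a processed pseudogene on the L1 strand. UID-6793 has 37798 reads on 383 bases, whereas UID-9760 has 3291 reads on 7103 bases.

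UID-6793 (chr3:119706166-119711435, plus strand, core of 5270 bp) holds Gm4332, a copy of Rps20, which encodes a protein of the small ribosomal subunit. The copy of 346 bp is 99.7% identical to the parent transcript. In RPM its lowest, median and highest levels were 240.9, 285.8 and 350.6 in 9 testes and 69.1, 276.1 and 322.0 in 9 livers. The 3 male brains were at 113.6, 113.7 and 119.8 RPM. The 2 male lungs stood far above all other libraries, at 1660 and 2007 RPM. Reads on all L1 loci were also many in these 2, at 87929 and 109959 with 17.15 and 18.83 M mapped reads. Female lungs had 9837 to 27973 with 8.45 to 46.81 M. In females, the values were 112.9, 141.9 and 182.2 in ovaries, 192.5, 305.9 and 383.1 in uteri, 33.8, 42.5 and 75.0 in brains, and 126.4, 188.4 and 278.3 in lungs. Female brains thus lay below all other female organs. Male brains overlapped with livers only through the liver of mouse 1110, whose mapped reads rest on 1 listed locus. All other livers were above the male brains, at 188.3 to 322.0 RPM. Male and female lungs did not overlap, but as for UID-5815 below, sex and sequencing run cannot be told apart. Per kb of window, the mean of 40.9 RPM for UID-6793 in testes compared with 6.28 RPM for UID-914 and 1.4 RPM for UID-8004. The covered part of the window stayed between 5.07% and 5.65% in all organs. Duplicates had been removed, and depth differed within organs. The female lungs with 8.45 and 10.47 M mapped reads were at 273.6 and 278.3 RPM, that with 46.81 M at 126.4 RPM. By contrast, the livers of mice 1209 and 1071, with 21.05 and 37.4 M, were at 276.1 and 278.0 RPM. Whether levels on so short a stretch depend on depth was not tested.

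UID-914 (chr17:78485501-78490827, plus strand) was next, with 30230 reads, and neither GENCODE nor RefSeq gives a gene in its core. The 700 bp upstream and 1000 bp downstream, where reads are also counted, were not searched for genes, here or at the loci below. Reads on UID-914 covered at most 292 bases, 4.16% of the window. The level was 36.6, 45.6 and 55.7 RPM in testes (lowest, median and highest), but 1.36, 4.37 and 5.91 RPM in livers and 2.92, 3.48 and 4.82 RPM in male brains. Testes did not overlap with livers or brains. Ovaries had 13.1, 16.8 and 24.0 RPM, uteri 18.8, 30.7 and 47.2 RPM, female brains 2.14, 3.15 and 4.04 RPM, and female lungs 10.7, 13.3 and 19.9 RPM. The gonads were therefore above the brains in each sex, as measured on this short stretch.

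UID-8004 (chr13:64911157-64916495, plus strand) holds Eif1-ps2, 339 bp and 97.3% identical to Eif1, which encodes a translation initiation factor. It had 13127 reads over at most 11.3% of the window. Testes had 7.38, 10.3 and 13.3 RPM, livers 1.24, 4.46 and 7.45 RPM, and male brains 2.80, 2.95 and 4.27 RPM. The male lungs were again the highest male libraries, at 18.1 and 20.2 RPM. Ovaries ranged from 4.43 to 8.21 RPM, uteri from 6.97 to 13.8 RPM, female brains from 3.62 to 7.35 RPM and female lungs from 7.78 to 25.3 RPM, so that most organs overlapped. The highest female lung had 8.45 M mapped reads and the lowest 46.81 M, and here too a dependence on depth was not tested.

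UID-5815 (chr3:59764437-59771099, plus strand, core of 6663 bp) holds Gm5539, 966 bp and 98.6% identical to Morf4l1, which encodes a chromatin protein of histone acetyltransferase complexes. All 33 libraries of females had between 3.61 and 17.4 RPM. The 23 libraries of males had between 0 and 1.06 RPM, and 3 livers had none. No male library reached the lowest female one, and in the brain, an organ taken from both sexes, the range was 0.168 to 0.193 RPM in males and 4.48 to 8.21 RPM in females. Males and females came in separate libraries. Neither the labels nor the methods say which library was sequenced on which of the 2 platforms used, which differ in read length. Where UID-6685 had 2 reads, they covered at most 2.636% of its window in males and up to 3.954% in females. With 2 reads of UID-13836 the covered part was 2.461% in the brain of male 1209 and 3.691% in that of female 1006. Reads thus appeared longer in these female libraries. The part of this in the differences between the sexes was not tested. Sex and sequencing run therefore cannot be told apart, and no test was made. In the testes the reads of UID-5815 spread over 13.98% to 28.6% of the window, and in female organs over 6.54% to 12.3%.

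UID-2739 (chr6:66742626-66748109, plus strand) holds Gm4045, 310 bp and 97.7% identical to Atp5l, which encodes a subunit of the mitochondrial ATP synthase. Here testes were lowest, at 0.477, 0.689 and 1.01 RPM, below livers at 1.24, 3.10 and 6.27 RPM, male brains at 2.92, 3.03 and 4.23 RPM and male lungs at 8.28 and 12.3 RPM. Testes did not overlap with any of these. The reads of UID-2739 covered 3.48% to 17.9% of the window in testes (median 514 bases) and 4.50% to 5.93% in livers (median 333 bases). These organs were thus not compared on the same stretch throughout. Female organs ranged from 0.8 to 4.64 RPM and overlapped with each other. UID-5942 (chr3:5746470-5751905, plus strand) holds Gm8797, annotated as protein-coding and 98.2% identical to the ubiquitin gene Ubb over 384 aligned bases. It had 1.79, 3.17 and 4.09 RPM in testes and 0.0478, 0.508 and 1.02 RPM in livers, and its 1448 reads covered at most 6.24% of the window. Male brains were at 0.841, 0.962 and 1.51 RPM and male lungs at 1.17 and 1.27 RPM, above female brains (0 to 0.242 RPM) and female lungs (0 to 0.191 RPM), with no overlap. Ovaries and uteri stayed at or under 0.258 RPM. UID-1349, with a copy of Cnih4 (Gm47333), had 238 reads, all in males. It was at 1.06 and 3.62 RPM in male lungs, at or under 0.620 RPM in testes, livers and male brains, and at 0 in all 33 libraries of females. In UID-5942 the libraries of males were thus the higher ones in brain and lung, and in UID-1349 in lung, whereas in UID-5815 those of females were. These were not the only such loci. UID-2739 was higher in males in brain (2.92 to 4.23 against 0.8 to 2.59 RPM) and lung (8.28 to 12.3 against 0.871 to 2.51 RPM), and UID-6793 in both organs too. UID-914 was lower in male lungs (4.57 to 8.34 against 10.7 to 19.9 RPM). UID-8004 overlapped between the sexes in both organs. In the male brains UID-1349 had 2, 4 and 6 reads, near the floor of 3 reads, so no difference in brain can be read from it. For these loci too sex and sequencing run cannot be told apart. The other loci with a processed pseudogene had 34 reads or fewer each over all libraries, led by UID-6685 with a copy of Rpl7a.

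**Figure D3:**
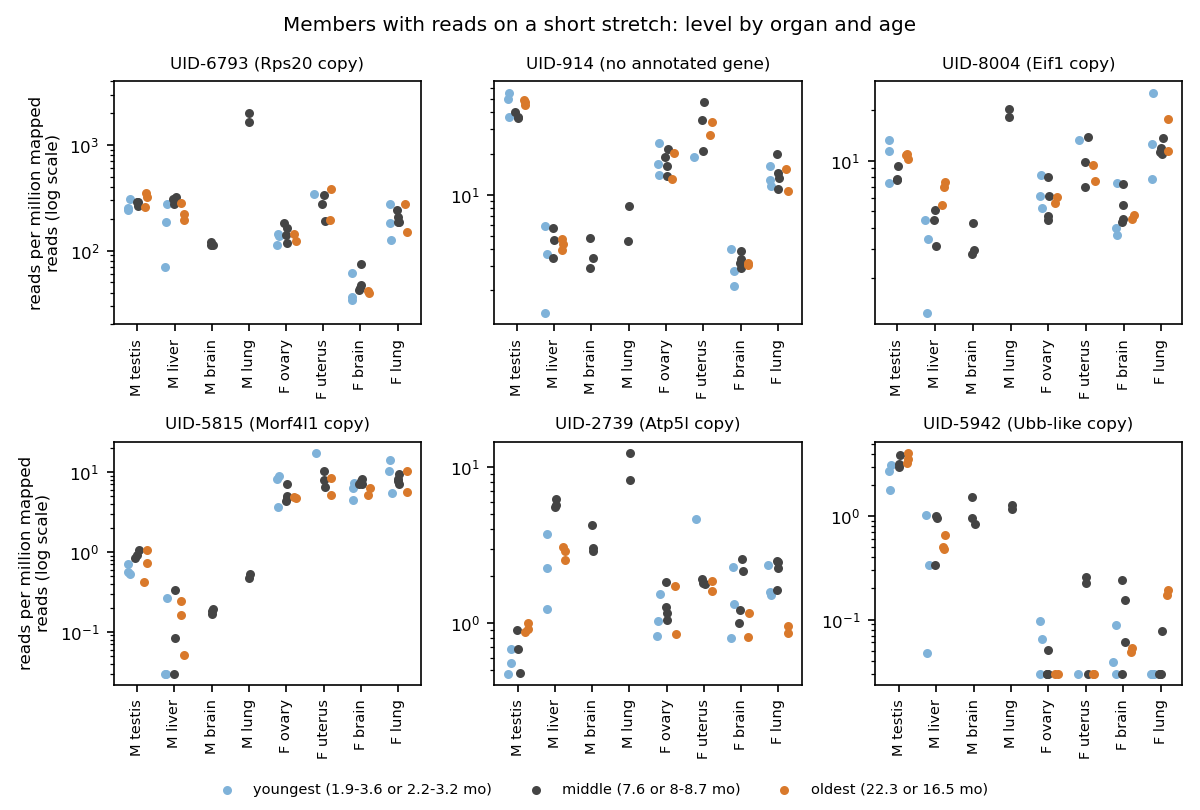
Level (RPM, log scale) of 6 long non-intact loci by organ, with M for male and F for female; each point is a library, coloured by age, and libraries without a read are drawn at the lowest position of the UID-5815 and UID-5942 panels. UID-6793 is highest in the 2 male lungs at 1660 and 2007 RPM, UID-914 is high in testes, and UID-5815 separates the female libraries from the male ones.

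The sum over all 707 loci followed UID-6793. It was 323.4, 395.7 and 462.9 RPM in testes (lowest, median and highest), 74.0, 293.2 and 338.5 RPM in livers, 134.7, 138.4 and 139.7 RPM in male brains, and 1709 and 2058 RPM in male lungs. In females it was 149.0, 177.1 and 221.3 RPM in ovaries, 274.6, 383.6 and 447.6 RPM in uteri, 51.8, 71.2 and 102.0 RPM in brains, and 156.6, 231.0 and 335.9 RPM in lungs. UID-6793 made up a median of 72.2% of the sum in testes, 93.4% in livers, 84.4% in male brains, 97.3% in male lungs, 79.1% in ovaries, 81.1% in uteri, 61.9% in female brains and 81.6% in female lungs. Without it, testes had a median of 112.3 RPM, against 49.8 RPM in male lungs, 21.04 RPM in male brains and 17.1 RPM in livers, so that the order of male lung and testis turned. In females the medians without it were 73.8 RPM in uteri, 42.5 RPM in lungs, 35.2 RPM in ovaries and 26.6 RPM in brains. The highest uterus, that of mouse 1006, was at 161.0 RPM, above every testis (highest 127.0 RPM). The number of loci with at least 10 reads did not follow the sum. It was 32, 48 and 59 in testes, 4, 8 and 12 in livers, 12, 13 and 19 in male brains, and 10 and 14 in male lungs. In females it was 6, 8 and 18 in ovaries, 7, 8 and 13 in uteri, 9, 12 and 20 in brains, and 5, 8 and 10 in lungs. Testes did not overlap with any other organ in this number, whereas the female organs overlapped.

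**Figure D4:**
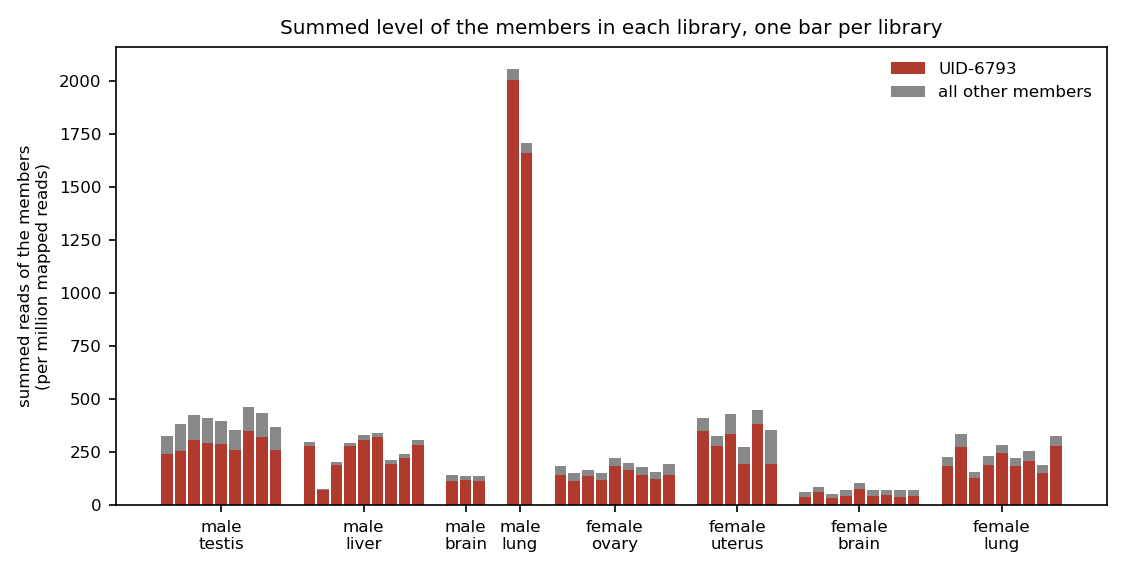
Summed level of the 707 long non-intact loci (RPM), with a bar for each of the 56 libraries, grouped by sex and organ. Red is UID-6793 and grey all other loci. The 2 male lungs reach 1709 and 2058 RPM, almost all of it UID-6793, and the grey part is largest in testes and in the uterus of mouse 1006.

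At some other loci reads spread over most of the window, and several of these had reads mainly in testes or in brains. A covered part of 50% or more in some library was reached by 14 of the 707 loci. UID-8735 (chr1:10687328-10692459, plus strand), in an intron of Cpa6 on the opposite strand, had 81 to 351 reads in the 9 testes, 2 reads in a liver and none elsewhere. Its level in testes was 2.40, 5.66 and 9.35 RPM, and up to 94.7% of the window was covered. UID-8383 (chr8:71833156-71841182, minus strand, core of 8027 bp) had 128 to 253 reads in testes, 2 reads in each of 2 livers and a female brain, and none elsewhere. Up to 69.3% of its window was covered, and it lies in an intron of Gm5373, a transcribed pseudogene on its own strand.

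UID-13066 (chr4:16181251-16188827, minus strand, core of 7577 bp), UID-5090 (chr5:60359008-60364832, minus strand) and UID-7404 (chr14:19618555-19623785, plus strand) had reads in testes only. Their levels there were 1.52, 2.94 and 5.39 RPM, 1.31, 2.10 and 3.37 RPM, and 1.06, 1.79 and 4.82 RPM. All 9 testes had at least 46 reads of each, and the 47 other libraries had 0. UID-7404 lies in an intron of 4930469B13Rik, a long non-coding RNA of the same strand. No gene is annotated in the core of UID-5090. UID-13836 (chr11:108701315-108707742, plus strand), in an intron of Cep112 on its own strand, had 2.07, 3.31 and 5.84 RPM in testes and was covered by up to 87.3%. It also had reads in 24 libraries of other organs, where it did not exceed the lowest testis.

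UID-10199 (chr10:5473510-5478795, plus strand), within an intron of Syne1 on the opposite strand, had reads in brains only. All 12 brains had them and the 44 libraries of other organs had 0. The 3 male brains had 59, 71 and 90 reads, or 1.66, 2.07 and 2.28 RPM. The 9 female brains had 0.210, 0.622 and 1.69 RPM, and up to 62.9% of the window was covered. UID-2044 (chr15:9374652-9379978, plus strand) had reads in livers only, 9 to 65 in each of the 9, or 0.215, 1.19 and 1.78 RPM. In the library with most reads they covered 281 bases, and no gene is annotated in the core.

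UID-11868 (chr7:114387722-114393912, minus strand), in an intron of the long non-coding RNA 4933406I18Rik on its own strand, had reads in 45 libraries and its highest medians in testes and brains. Testes had 1.48, 2.42 and 3.24 RPM, male brains 1.85, 1.93 and 2.66 RPM and female brains 0.414, 1.13 and 3.49 RPM. Livers were at or under 0.251 RPM and male lungs at 0.106 and 0.583 RPM. Ovaries had 0, 0.197 and 1.14 RPM with up to 42.0% of the window covered, uteri 0, 0.131 and 1.65 RPM with up to 31.3% covered, and female lungs 0, 0.174 and 0.382 RPM. Ovaries and uteri thus overlapped with female brains, and every female lung was below the lowest female brain. UID-7237 (chr14:18682114-18687260, minus strand), in an intron of the ubiquitin-conjugating enzyme gene Ube2e2 on its own strand, had reads in all 56 libraries. By median it was highest in lungs, at 4.20 and 4.78 RPM in males and 0.473, 1.39 and 3.66 RPM in females, and female lungs overlapped with most other organs.

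UID-9760 (chr16:45503405-45508856, minus strand), which RefSeq annotates as Gm17783, was the most deeply read locus that was also covered in full length. In the 6 uteri it had 2, 234, 263, 348, 859 and 3291 reads, or 0.0748, 12.1, 9.83, 22.4, 24.3 and 102.6 RPM. The uterus of mouse 1324 (8 to 8.7 mo) was the one with 2 reads and that of mouse 1006 (16.5 mo) the one with 3291. The ovary of mouse 1006 had 310 reads over 87.6% of the window, 2 other ovaries had 6 and 24 reads, and 6 ovaries had none. Testes had 4 to 14 reads of UID-9760, and each other library at most 2.

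**Figure D5:**
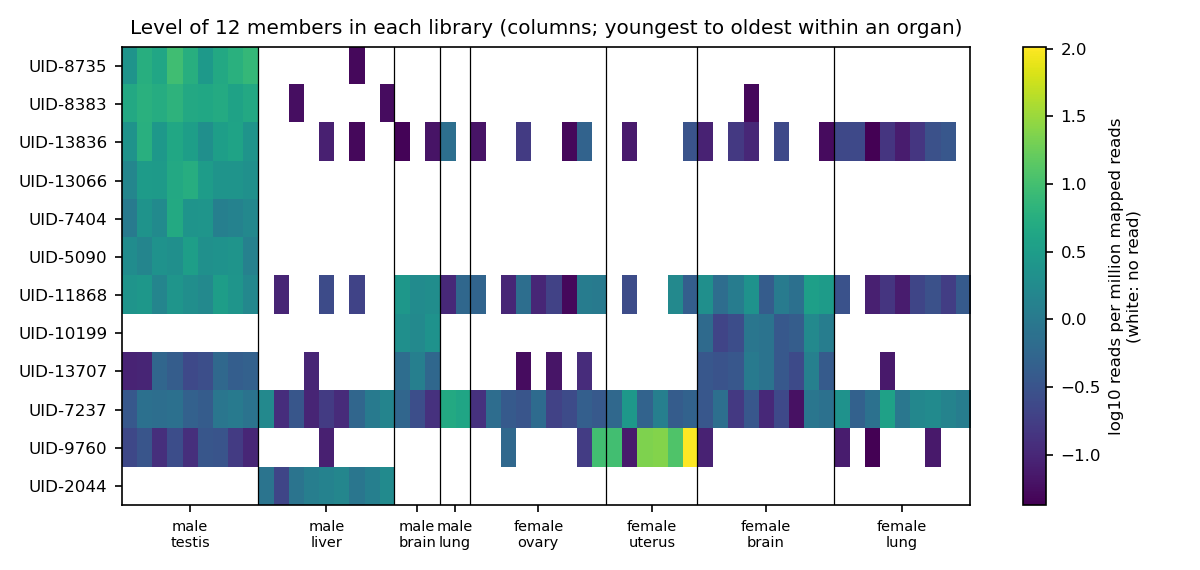
Level of 12 long non-intact loci (rows, log10 RPM, white for no read) in each of the 56 libraries (columns), grouped by sex and organ and ordered by age within an organ. UID-13066, UID-5090 and UID-7404 have reads in testes only, UID-10199 in brains only, UID-2044 in livers only, and UID-9760 reaches 102.6 RPM in a uterus.

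Organs were compared locus by locus over all loci of the table in edgeR (quasi-likelihood test), and a locus was called when its p, adjusted after Benjamini and Hochberg over all loci tested, was under 0.05. Between liver and testis of the 9 males, 22 of the 707 loci had enough reads to be tested, 1 was higher in liver and 19 were lower. Over all 351 loci tested, 4.56% were called higher and 91.7% lower (96.3% in all), so the long loci lay near the background. Of the 22, 15 had 10 reads in no liver and 11 had no read there at all. These passed the filter through testes alone and had to be lower in liver, so their counts and the median log2 difference of -7.49, beside -7.76 over all loci tested, describe the loci that passed and do not stand for the 707. UID-2739 was higher in liver (log2 difference 2.24, SE 0.25, adjusted p = 2.54e-09) in each of the 9 livers against each testis. UID-914 was lower (-3.39, SE 0.24, adjusted p = 1.03e-12). UID-13066, UID-5090 and UID-7404, at 0 in all livers, were at least 30.6-fold, 21.1-fold and 21.1-fold lower than in testes, with the floor of 3 reads taken in each liver. UID-6793 was not called (-0.29, SE 0.23, adjusted p = 0.219), and its difference became positive, 1.41, with total L1 reads and TMM factors as library size. UID-8004 was lower (-1.15, SE 0.23, adjusted p = 3.96e-05), but higher by 0.55 under that scaling. With it, 4 loci were higher and 17 lower, or 19.0% higher in place of 5.0%.

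Between brain and testis of the 3 males of 7.6 mo, 32 of the long loci were tested, of which 3 were higher in brain and 24 lower, beside 9.3% and 82.9% (together 92.1%) of all 484 loci tested. Here too 20 of the 32 had 10 reads in no brain, and 1, UID-10199, in no testis, so the filter fixed their direction. UID-10199 was at least 21.9-fold higher in brain, since it had 0 reads in the testes. UID-2739 was higher by 2.29 on the log2 scale (SE 0.50, adjusted p = 6.29e-06). UID-13707 (chr4:31812195-31817611, minus strand) was higher by 1.39 (SE 0.66, adjusted p = 0.0387), which was not called without mouse 1303 (adjusted p = 0.434) or with the animal as a block (adjusted p = 0.122). UID-8735, UID-8383 and UID-13066 had 0 reads in the 3 brains and were at least 71.4-fold, 63.1-fold and 52.8-fold lower than in testes. UID-6793 was lower by edgeR (-1.27, SE 0.09, adjusted p = 1.44e-41) and UID-914 as well (-3.34, SE 0.25, adjusted p = 3.6e-38). UID-11868 was not called (0.07, SE 0.47, adjusted p = 0.895), and its levels in brain and testis overlapped. With total L1 reads and TMM factors, 6 loci were higher and 21 lower, or 22.2% higher in place of 11.1%, and UID-6793 missed the threshold (adjusted p = 0.0699).

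In females, 9 long loci were tested between brain and ovary, 2 of them higher in brain and 2 lower, beside 24.7% and 34.1% (together 58.8%) of all 85 loci tested. UID-8454 (chr8:24656047-24664647, minus strand), in an intron of Adam18 on its own strand, was higher by 3.89 (SE 0.59, adjusted p = 2.67e-06). Its medians were 1.13 RPM in brains and 0.0509 RPM in ovaries, but its groups overlapped. UID-11868 was higher by 2.08 (SE 0.50, adjusted p = 0.000842), although its groups overlapped. UID-914 was lower by edgeR (-2.48, SE 0.22, adjusted p = 2.44e-10), as was UID-6793 (-1.59, SE 0.17, adjusted p = 4.67e-09), and neither overlapped between the organs. With DESeq2, 5 loci were higher and 2 lower, or 71.4% higher in place of 50.0%.

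Between lung and ovary, 3 of 7 tested loci were higher in lung and 0 lower, beside 23.8% higher and 27.5% lower (together 51.2%) among all 80 loci tested. The 3 were UID-7237 (2.03, SE 0.44, adjusted p = 0.000151), UID-8004 (1.15, SE 0.27, adjusted p = 0.000334) and UID-6793 (0.54, SE 0.18, adjusted p = 0.00919), and each overlapped between the organs. UID-6793 missed the threshold with DESeq2 (adjusted p = 0.0778) and with TMM factors (adjusted p = 0.0787). At an unadjusted p under 0.05, 4 were higher and 0 lower, beside 44 of all 80 loci tested, 20 of them higher. DESeq2 called 3 of the long loci higher and 0 lower.

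Between uterus and ovary of the 6 females that gave both, 2 of 8 tested loci were higher in uterus and 0 lower, beside 9.01% higher and 30.6% lower (together 39.6%) among all 111 loci tested. UID-6793 was higher (1.02, SE 0.20, adjusted p = 0.00183), and its 6 uteri lay above its 6 ovaries. UID-9760 was higher by 7.34 (SE 1.77, adjusted p = 0.00596), but the uterus of mouse 1324, with 2 reads, lay within the range of the ovaries. Without mouse 1006 it did not have enough reads in enough libraries to be tested and UID-6793 alone was called. At an unadjusted p under 0.05, 5 were higher and 0 lower, beside 54 of all 111 loci tested, 14 of them higher. DESeq2 and TMM factors each called 7 loci, all higher in uterus.

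Age was compared within organs. In testes of 7.6 mo against 1.9 to 3.6 mo, none of 43 long loci tested was called by edgeR (background 0.0% of 756), and 0 had an unadjusted p under 0.05. DESeq2 called 0 of them as well. Over all 756 loci tested, 55 had an unadjusted p under 0.05. In testes of 22.3 mo against 1.9 to 3.6 mo, 0 of 49 were called (background 0.0% of 771), again with 0 at an unadjusted p under 0.05 and 0 called by DESeq2. Over all 771 loci tested, 28 had such a p. In simulated data with 4-fold changes, 69.0% and 87.4% of the changed loci were called in these designs. There 184 of 744 and 175 of 724 tested loci were changed and all loci had the same dispersion. These shares therefore do not hold where few loci change or where a locus varies more. UID-6793, for example, had 240.9, 254.6 and 305.1 RPM in the youngest testes, 261.7, 285.8 and 291.2 RPM at 7.6 mo, and 258.5, 319.3 and 350.6 RPM at 22.3 mo.

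In livers of 22.3 mo against 1.9 to 3.6 mo, 0 of 9 long loci were called by edgeR (background 4.76% of 63), with 0 at an unadjusted p under 0.05, beside 6 of all 63 loci tested. DESeq2 called UID-8004. Its levels were 1.24, 3.43 and 4.44 RPM in the youngest and 5.44, 6.96 and 7.45 RPM in the oldest livers and did not overlap (log2 difference 1.12, SE 0.68, adjusted p = 0.527 by edgeR). The liver of mouse 1110, of 1.9 to 3.6 mo, was the lowest liver for UID-6793, UID-914, UID-8004, UID-2739 and UID-5942, at 69.1 RPM for UID-6793, and its mapped reads rest on 1 listed locus.

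In ovaries of 16.5 mo against 2.2 to 3.2 mo, 0 of 14 were called by edgeR (background 4.81% of 187), and 3 had an unadjusted p under 0.05, all higher. Over all 187 loci tested, 43 had such a p, 42 of them higher. DESeq2 called 3 other loci, UID-5815, UID-8004 and UID-914, as lower. The edgeR differences of these 3 were also negative but not called (-0.54, -0.17 and -0.13 on the log2 scale, adjusted p = 0.592, 0.864 and 0.869). Of the 14, 5 had 10 reads in no young ovary and passed the filter through the old ones. Only 8.45% of loci changed 4-fold were called in simulated ovaries. In female brains of 16.5 mo against 2.2 to 3.2 mo, 0 of 16 were called by edgeR (background 0.0% of 174) and 0 by DESeq2, and 5 had an unadjusted p under 0.05, all higher. Over all 174 loci tested, 37 had such a p, all higher. The median log2 difference was 0.933 for the long loci and 1.07 over all, so the rise was not particular to the long loci. Of the 16, 3 had 10 reads in no young brain. UID-10199 was among these 5, at 0.210, 0.272 and 0.622 RPM in the young and 1.17 and 1.69 RPM in the old brains (log2 difference 1.96, SE 0.71, adjusted p = 0.169 by edgeR). UID-11868 was another, at 0.682, 1.13 and 2.09 RPM against 3.02 and 3.49 RPM (1.32, SE 0.56, adjusted p = 0.212 by edgeR). Neither overlapped between the ages, yet neither passed the threshold. Leaving out mouse 1534 gave 2 called loci in ovaries and 2 in brains, and leaving out mouse 1004 gave 1 in ovaries.

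The longest cores were little read. UID-9590 (chr1:122766823-122778246, 11424 bp) had 2 reads in a brain and UID-3494 (10652 bp, on the X chromosome within an intron of Gabra3 on the opposite strand) had none in 56 libraries. UID-5396 (10592 bp) had 14 reads in 3 testes. UID-9985 (10563 bp, in an intron of Lamp3 on the opposite strand) had 34 reads, at most 10 in a testis. UID-1408 (10496 bp) had 2. At these counts no more than 3.66% of a window was covered, and differences between organs were not detectable.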

How the data were processed

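Cytoplasmic poly(A) RNA was sequenced strand-specifically in paired ends, with 150 bp reads on DNBseq or 100 bp reads on Illumina instruments. According to the methods, the authors aligned reads to mm10 with Bowtie, kept unique concordant pairs with up to 3 mismatches, removed duplicates and separated strands. With bedtools they counted same-strand reads in each annotated L1 window, from 700 bp upstream to 1000 bp downstream of the core. The deposited values used here are these read counts, with mates counted separately, and the covered fraction of the window deposited beside each count. The authors then inspected the loci by hand and kept only those scored as transcribed from the L1 promoter, a small share of loci with reads. Most L1 reads they assigned to passive transcription. The counts used here precede that step, so these levels are not what the study calls L1 mRNA expression. The study also gives an FPKM table of the loci it kept, used here for depth alone.

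The members and lists were chosen with earlier results of these data known. Library size was the number of mapped reads, recovered as the value on which most listed loci coincide (tolerance 0.02%) when reads are divided by FPKM and 6 kb. At 22.3 mo, 5 libraries did not match the column of their own number and took the matching column. This number rests on 1 locus for the liver of mouse 1110, and the uteri of mice 1534 and 1324 gave the same value.

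Loci with at least 10 reads in n libraries, where n is the size of the smaller of both groups, were tested with edgeR 4.0.16 (glmQLFit, glmQLFTest) in R 4.3.3, with age group as a covariate where ages were pooled, and called at a Benjamini-Hochberg adjusted p under 0.05. The SE is the fitted difference divided by the square root of its F statistic. The labels give the organs of 1 mouse the same number, so organ comparisons were also fitted with the animal as a block. Replicates are separate animals. The self-test used simulated counts with 4-fold changes in up to 200 loci and the same dispersion for all loci of a comparison. The other alternatives were DESeq2 1.42.0, total L1 reads with TMM factors, no count filter, other length limits, thinning and leaving out each animal.

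Loci are named if they are among the 5 with the highest mean RPM in an organ, the 3 most changed called loci per direction without overlap, the 5 longest, the 3 on each side of the length limit, or hold a matched gene copy. UID-8454, UID-11868, UID-7237 and other called loci whose groups overlap, and those named for a single organ or an age difference, were chosen after their values were seen. Gene copies are GENCODE M21 genes of at least 150 bp inside a core, matched to other transcripts with blastn 2.17.0. No genome sequence was used here, so inserted stretches without a gene were not looked for. Python 3.11.15, numpy 2.4.6, pandas 2.3.3, bedtools 2.31.1 and matplotlib 3.10.9 were used. The mice of 12.8 mo (12 libraries, other windows) and the 12 rat libraries were not used.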

Additional observations from a re-analysis of the deposited data

Results flagged for a closer look

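In the 4 brains of females of 8 to 8.7 mo, the brain of mouse 1325 stood apart from the others. The summed level of the long non-intact loci was 102.0 RPM there, beside 69.1 to 71.8 RPM in the other 3, and its gap to the next brain was 0.919 of the whole range, past Dixon's critical value. UID-6793 was at 75.0 RPM in that brain and at 42.5 to 47.1 RPM in the others, with a gap of 0.86 of the range. The 2 values are not independent, since UID-6793 makes up most of the sum. Of 183 checks made, chance would give such a gap in about 1 of 20 groups. The mapped reads of this brain rest on 8 of 15 listed loci, and the part of this in the level was not tested.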

How the results depend on the processing

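Of 676 values of single loci under the alternatives, 660 kept direction and side of the threshold, 11 lost the call and 5 reversed. In liver minus testis, UID-6793 turned from -0.29 to 0.16 with DESeq2, 0.18 with mapped reads by column number (chosen after seeing the data), 0.11 at 7.6 mo alone and 1.41 with TMM factors, and UID-8004 to 0.55 with TMM factors. Without a count filter, the long loci called were 137 (liver and testis), 70 (male brain and testis), 29 (female brain and ovary), 8 (lung and ovary), 4 (uterus and ovary) and 1 (old and young ovaries), since more loci are then tested. DESeq2 called 7, 7, 1 and 3 in brain and ovary, uterus and ovary, livers by age and ovaries by age. TMM factors called 7 in uterus and ovary. Mapped reads by column number called 1 in livers by age. The cause of these was not tested. Leaving out each animal gave 20 to 22, 27 to 40, 3 to 5, 3 to 4 and 1 to 2 calls in these 5 organ comparisons, in that order, 0 to 0 in testes and livers by age, 0 to 2 in ovaries and 0 to 2 in brains. With the animal as a replicate block, 20 loci (1 higher, 19 lower) were called in liver and testis, 26 in male brain and testis, 4 in female brain and ovary, 4 in lung and ovary and 2 in uterus and ovary. The block ended the call of UID-13707 (adjusted p = 0.122) and of no other called locus named here, and it added UID-5815 in lung and ovary.

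The median number of loci with at least 1 read in place of 10 was 141 in testes, 17 in livers, 36 in male brains, 19.5 in male lungs, 33 in ovaries, 25 in uteri, 42 in female brains and 24 in female lungs. Thinned to 8.45 M mapped reads, loci with 10 reads numbered 14, 5, 7 and 6.5 in the male organs, 7 in female brains and 6 in female lungs. The summed level relative to testis, 0.741 in livers, 0.35 in male brains and 4.76 in male lungs, was 1.04, 0.846 and 1.78 as a share of L1 reads and 0.152, 0.187 and 0.443 without the locus with most reads. Relative to ovary, uteri (2.17) were at 1.21 and female brains (0.402) at 0.7 as a share, and female brains at 0.755 without that locus. A limit of 5000 bp gives 2935 loci and one of 5300 bp 362. TMM factors moved the median log2 difference of all loci from -7.76 to -7.14 (liver and testis), from -7.42 to -7.02 (male brain and testis), from -0.308 to -0.148 (female brain and ovary), from -0.273 to -0.165 (lung and ovary), from -0.982 to -0.524 (uterus and ovary), from 0.323 to 0.0244 (testes of 7.6 mo), from 0.415 to 0.182 (livers by age), from 1.62 to 0.32 (ovaries by age) and from 1.07 to 0.153 (brains by age). Loci under 10 reads could not be compared.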
